A study of Mus musculus with 6 samples.

Results

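The genes described here encode the phagocyte NADPH oxidase, receptors for the Fc part of IgG and the adaptors that signal for such receptors. They are the oxidase subunits Cybb, Cyba, Ncf1 and Ncf4, the Fc gamma receptors Fcgr2b and Fcgr3, the adaptors Fcer1g and Tyrobp, and the Tyrobp-coupled receptor Trem2. Every probe set whose gene symbol is on that list of 9 was taken, which gave 18 of the 45101 probe sets on the array, for 9 of the 18193 genes that have a probe set of their own. Hind limb skeletal muscle was the source of RNA, from 3 wild type mice and from 3 laminin alpha 2 chain deficient mice, labelled as separate biological replicates, all 4 weeks old and each hybridised to its own Affymetrix array. The labels name neither the Lama2 allele nor the strain or sex. Lama2 itself read 428.7, 415.6 and 326.2 signal units in wild type replicates 1 to 3 and 82, 31.1 and 140.4 in deficient replicates 1 to 3, and fell by 2.17 on the log2 scale (limma, adjusted p = 0.0207). That call was lost without wild type replicate 1 (adjusted p = 0.103), wild type replicate 2 or deficient replicate 1. The small number of arrays limits precision.

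The oxidase sits in the membrane of neutrophils and macrophages as a pair of proteins made from Cybb and Cyba, and it makes superoxide once cytosolic subunits, among them the products of Ncf1 and Ncf4, join it. Fc gamma receptors bind antibody-coated particles: Fcgr3 encodes an activating receptor that signals through the Fcer1g chain, and Fcgr2b encodes the inhibitory receptor, which carries its own inhibitory tyrosine motif. Tyrobp encodes DAP12, an adaptor with an activating tyrosine motif that Trem2 and related receptors use, and Trem2 binds lipids and lipoproteins on macrophages, microglia and osteoclasts. In dystrophic muscle macrophages clear necrotic fibres.

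The stretches around the transcription start are shown for both genes that passed the test and for the neighbouring receptor genes Fcgr2b and Fcgr3, between which the only annotated coding gene is Fcgr4. Each runs from 100 bases before to 20 bases after the start, 5′ to 3′ on the gene's strand, from RefSeq on GRCm38.p6. Capitals mark GAGGAA, or TTCCTC where it lies on the other strand, the core of the motif of PU.1, a transcription factor of myeloid cells.
Cybb: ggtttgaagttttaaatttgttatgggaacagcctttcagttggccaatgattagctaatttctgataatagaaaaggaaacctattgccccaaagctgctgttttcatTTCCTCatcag
Trem2: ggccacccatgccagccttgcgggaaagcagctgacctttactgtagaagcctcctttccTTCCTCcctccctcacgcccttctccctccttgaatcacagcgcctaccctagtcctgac
Fcgr3: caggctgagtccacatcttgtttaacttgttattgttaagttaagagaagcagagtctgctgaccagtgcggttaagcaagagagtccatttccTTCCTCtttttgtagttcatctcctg
Fcgr2b: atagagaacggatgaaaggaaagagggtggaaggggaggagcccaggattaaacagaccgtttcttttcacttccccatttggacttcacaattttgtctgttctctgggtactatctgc

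These stretches lie at chrX:9469305-9469424 on the minus strand for Cybb, chr17:48346301-48346420 on the plus strand for Trem2, chr1:171059384-171059503 on the minus strand for Fcgr3 and chr1:170976052-170976171 on the minus strand for Fcgr2b. The Cybb match covers bases 10 to 15 counted from the start base as 1, the Trem2 match bases -40 to -35 and the Fcgr3 match bases -6 to -1. Fcgr3 has another annotated start, from which the same match lies at bases -15 to -10. Promoter windows of 300 bases, 250 before and 50 after the start, matched 7 of the 9 genes, all but Ncf4 and Tyrobp. Searched on both strands, GAGGAA was in the windows of 3 of those 7 genes, against 31.3% of the 27025 genes with a window. TGANTCA, the AP-1 motif, was in 2 of the 7, Cybb and Trem2 (8.97% of genes), TTNNGCAA, a C/EBP motif, in 2, Fcgr3 and Trem2 (12.2%), and CACGTG, an E-box, in 0 (8.09%). GAGGAA also contains the GGAA that other ETS factors share.

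The libraries also differed in sex-linked and hair follicle transcripts. The Y-linked gene Eif2s3y read between 414.6 and 573.7 in replicates 1 and 2 of both groups and 10.7 and 9.1 in replicate 3 of the wild type and deficient groups. Xist read 1163.1 and 1839.1 in those replicates 3, and 1.4, 19.1 and 16.1 in wild type replicates 1 and 2 and deficient replicate 2. Deficient replicate 1 carried both, with 396.3 for Xist and 414.6 for Eif2s3y, and the log2 difference of each of the 9 genes is also given without it. Hair follicle keratin genes were bright in wild type replicates 1 and 2, as in Krt25 with 653.3 and 244.5, beside 17.1 in wild type replicate 3 and 11.8, 20.2 and 3.4 in the deficient libraries. Their part in the results below was not tested.

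Log2 differences are the deficient mean minus the wild type mean of log2(signal + 16); the added 16 shrinks the difference of a dim gene. For each gene the brightest probe set was taken, and a gene was called at an adjusted p under 0.05 (limma with Benjamini-Hochberg adjustment over all 13104 genes tested). By this rule Cybb and Trem2 rose, 2 of the 9 genes, and none fell. Of all genes tested, 1.25% were called higher and 1.44% lower. Another 5 of the 9, Ncf4, Fcgr2b, Fcgr3, Fcer1g and Tyrobp, had an unadjusted p under 0.05 and did not pass the adjustment. With the called genes included, 7 of the 9 (6 without Trem2) had an unadjusted p under 0.05 by limma, all higher. The same held for 9.43% of all genes, called ones included, in that direction. All 9 log2 differences were positive, from 0.63 for Cyba to 2.11 for Trem2, with a median of 1.45 beside 0.02 over all genes tested, of which 52.6% had a positive difference. Trem2 passed the filter on low values, a mean signal of 15, only through the deficient group, so its place among the tested genes already required a difference. The same held for the later named Lat2, Sirpb1a, Itgax and Csf3r, whose wild type means also lay below 15. The wild type means of the other 8 of the 9 genes lay above that level.

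**Figure D1:**
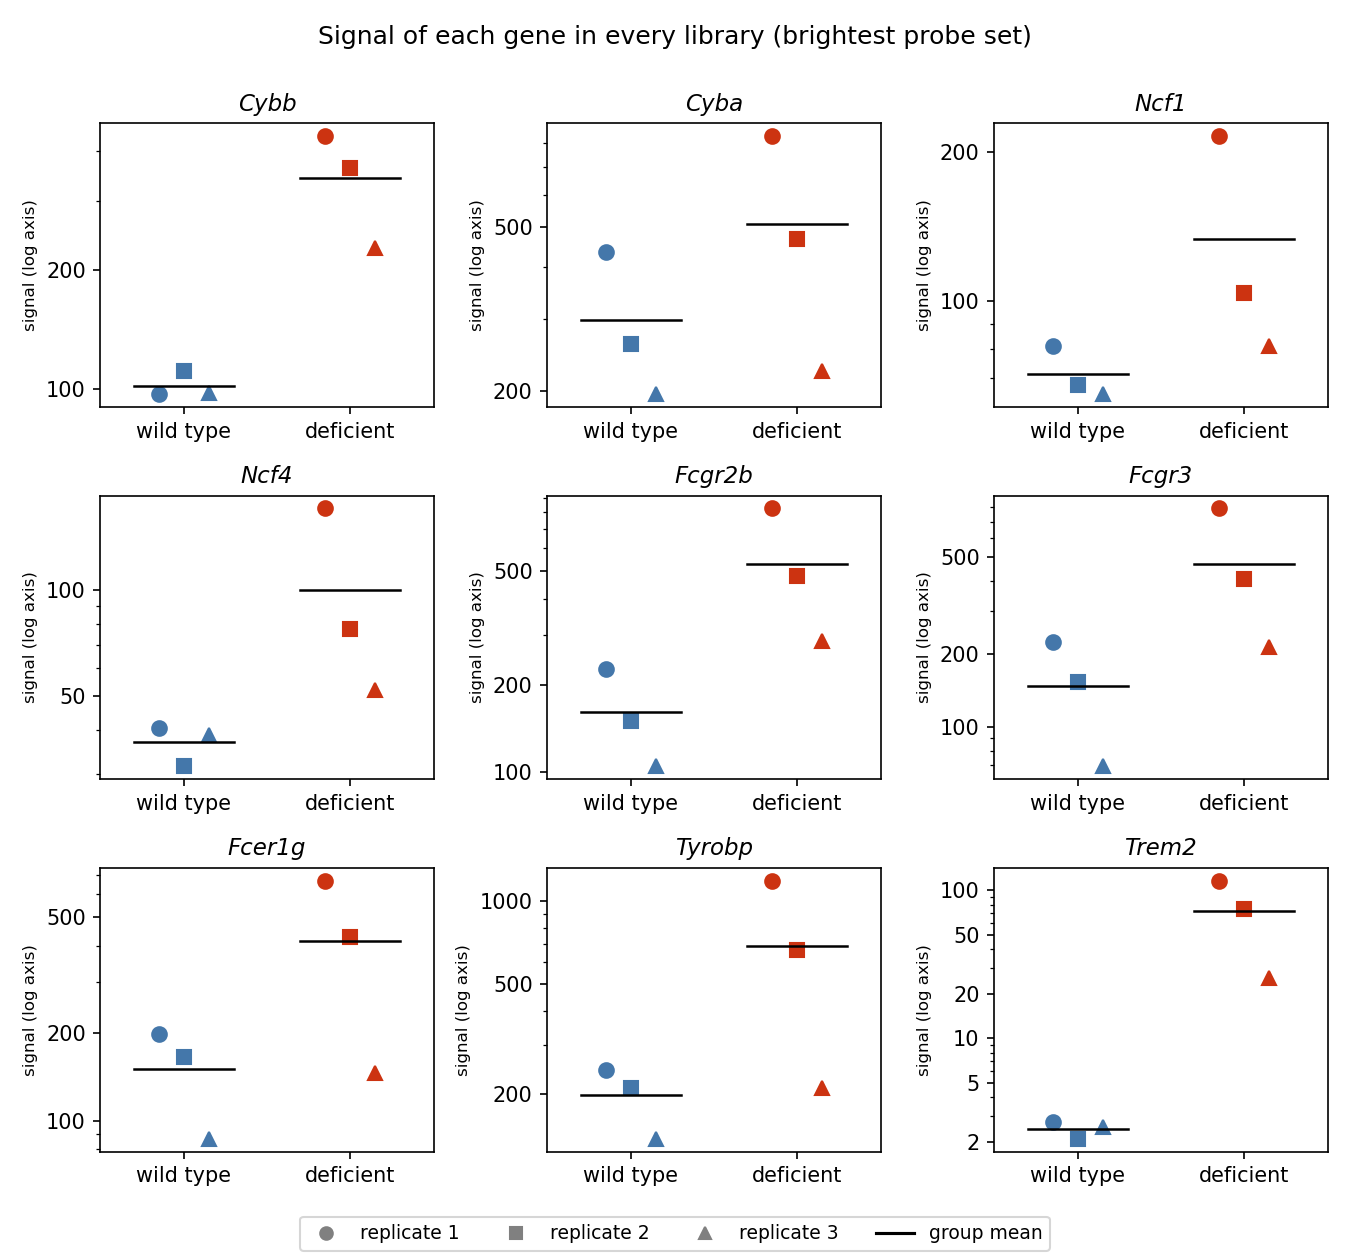
Signal of the brightest probe set of each gene (log axis, own range per panel) in 3 wild type (blue) and 3 deficient (red) libraries, with the replicate number as the symbol and the group mean as a bar. Deficient replicate 1 is the highest point in all 9 panels, and deficient replicate 3 lies inside the wild type range for Cyba, Fcgr3, Fcer1g and Tyrobp.

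Cybb, the catalytic subunit of the oxidase, read 97.3, 111 and 98.1 in the wild type libraries and 437.5, 363.6 and 227.9 in the deficient libraries on its brightest probe set, 1436778_at. The lowest deficient library was above every wild type library, and the wild type values were close together. The mean rose from 102 ± 7.69 to 343 ± 106 (SD, n = 3 each), a log2 difference of 1.56 (SE 0.243, adjusted p = 0.0151). The probe set 1436779_at of the same gene read 40.1, 33.7 and 58.6 in wild type and 123.9, 120.1 and 66.2 in deficient muscle, again without overlap, with a log2 difference of 0.97 (SE 0.275, adjusted p = 0.12 over all probe sets). The third, 1422978_at, read 50.1, 61.4 and 44.2 against 129, 72.4 and 32.6, so deficient replicate 3 was below every wild type library there (log2 difference 0.34, adjusted p = 0.678). The 3 probe sets of Cybb thus agreed on deficient replicates 1 and 2 and differed on replicate 3. With the mean of its probe sets in place of the brightest, the log2 difference of Cybb was 0.96 and the call was lost (adjusted p = 0.0967). The call was also lost without wild type replicate 1 (adjusted p = 0.08), wild type replicate 2 (0.0573) and deficient replicate 2 (0.0747), and it held without deficient replicate 1 (log2 difference 1.37, adjusted p = 0.0465). The alternatives gave Cybb adjusted p values between 0.00179 and 1, the last with a 2-fold minimum.

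Cyba encodes p22phox, the membrane partner that stabilises the Cybb product and that many other cell types also make. It read 435.4, 260.6 and 197.1 in wild type and 832.7, 469 and 224 in deficient muscle. The groups overlapped, with deficient replicate 3 below wild type replicates 1 and 2. The log2 difference was 0.63 (95% interval -0.33 to 1.59, adjusted p = 0.464), the smallest of the 9, and it fell to 0.19 without deficient replicate 1.

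Ncf1 encodes p47phox, the organiser that carries the cytosolic subunits to the membrane. On its brightest probe set, 1456772_at, it read 81.3, 67.8 and 65 in wild type and 215.2, 103.9 and 81.4 in deficient muscle, the lowest deficient value being 0.1 above the highest wild type one. The log2 difference was 0.68 (95% interval 0 to 1.36, adjusted p = 0.266), and 0.31 without deficient replicate 1. On 1451767_at the values were 26.2, 41.4 and 30.3 against 88.3, 39.6 and 29, and on 1425609_at 15.6, 28.1 and 22.3 against 45.8, 27.3 and 18.6. Only deficient replicate 1 stood above the wild type range on both of these probe sets.

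Ncf4 encodes p40phox, which binds a phagosomal lipid and supports the oxidase there. It read 40.4, 31.5 and 38.6 in wild type and 171.3, 77.6 and 52 in deficient muscle, without overlap. The log2 difference was 1.01 (SE 0.337, adjusted p = 0.147). It was 0.60 without deficient replicate 1, and 1.33 and past the threshold without deficient replicate 3 (adjusted p = 0.0384).

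Fcgr2b, the inhibitory receptor, had 5 probe sets, of which 4 passed the filter. The brightest, 1435477_s_at, read 228.1, 150.5 and 104.7 in wild type and 825.5, 479.6 and 285.1 in deficient muscle, without overlap (log2 difference 1.56, SE 0.374, adjusted p = 0.0626 over genes and 0.0775 over probe sets). Without deficient replicate 1 the log2 difference was 1.18 (adjusted p = 0.125). The probe set 1435476_a_at read 91.8, 61 and 72.8 against 322.8, 208.2 and 154.5. It was called higher in the fit over 27026 probe sets (log2 difference 1.38, SE 0.276, adjusted p = 0.0443). On 1455332_x_at the values were 92.9, 63.8 and 51.1 against 485.1, 178.9 and 121.7, and on 1451941_a_at 97.7, 93.6 and 53.9 against 381.4, 158.9 and 107.8. All 4 of these had every deficient library above every wild type library, and their log2 differences lay between 1.10 and 1.56. Suffixes _s_at and _x_at mark probes that can bind transcripts of more than the named gene. The fifth, 1447622_at, stayed between 0.9 and 10.4 in all 6 libraries and was not tested.

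Fcgr3, the activating receptor, read 222.9, 152.8 and 69.1 in wild type and 792.4, 405.4 and 213.2 in deficient muscle. Deficient replicate 3 was just below wild type replicate 1, so the groups overlapped. The log2 difference was 1.5 (SE 0.472, adjusted p = 0.126), and 1.04 without deficient replicate 1 (adjusted p = 0.252). The difference between Fcgr2b and Fcgr3 within a library was -0.02 to 0.50 in wild type and 0.06 to 0.39 in deficient muscle on the log2 scale, and these groups differed by 0.06 (exact two-sided permutation test, p = 0.8, adjusted p = 0.8 over 4 gene pairs, where the smallest p that 3 against 3 allows is 0.1). The other 3 pairs compared this way differed by 0.93 for Cybb minus Cyba, 0.66 for Trem2 minus Tyrobp and 0.25 for Tyrobp minus Fcer1g, each with an exact permutation p of 0.2 (0.267 adjusted). With 3 against 3 none of these tests could pass 0.05.

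Fcer1g, the signalling chain shared by activating Fc receptors, read 199.6, 166 and 87.1 in wild type and 668.6, 428 and 146.5 in deficient muscle (log2 difference 1.2, SE 0.478, adjusted p = 0.21). Tyrobp, the adaptor of Trem2, read 244.3, 211.1 and 137.8 against 1187.8, 668.2 and 209.6 (log2 difference 1.45, SE 0.508, adjusted p = 0.162). In both adaptors deficient replicates 1 and 2 were far above the wild type libraries and deficient replicate 3 was within their range. Without deficient replicate 1 the log2 differences were 0.75 and 0.91.

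Trem2 read 2.7, 2.1 and 2.5 in wild type and 116, 74.8 and 25.7 in deficient muscle on 1421792_s_at. The wild type signals were near the bottom of the array's range, and all 3 deficient libraries were above them. Trem2 rose by 2.11 on the log2 scale (SE 0.391, adjusted p = 0.0269). The size rests on the pseudocount, and the log2 difference ran from 1.49 to 4.18 over all alternatives, with an adjusted p from 0.00303 to 1. The call was lost without wild type replicate 1 (adjusted p = 0.107), wild type replicate 2 (0.0917), wild type replicate 3 (0.062), deficient replicate 1 (log2 difference 1.74, adjusted p = 0.0773) and deficient replicate 2 (0.114), and with a 2-fold minimum. The other Trem2 probe set, 1421226_at, read 3.6, 3.5 and 7.1 in wild type and 4.3, 32.6 and 34.6 in deficient muscle and did not pass the filter. There deficient replicate 1, the highest on 1421792_s_at, was as low as the wild type libraries.

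**Figure D2:**
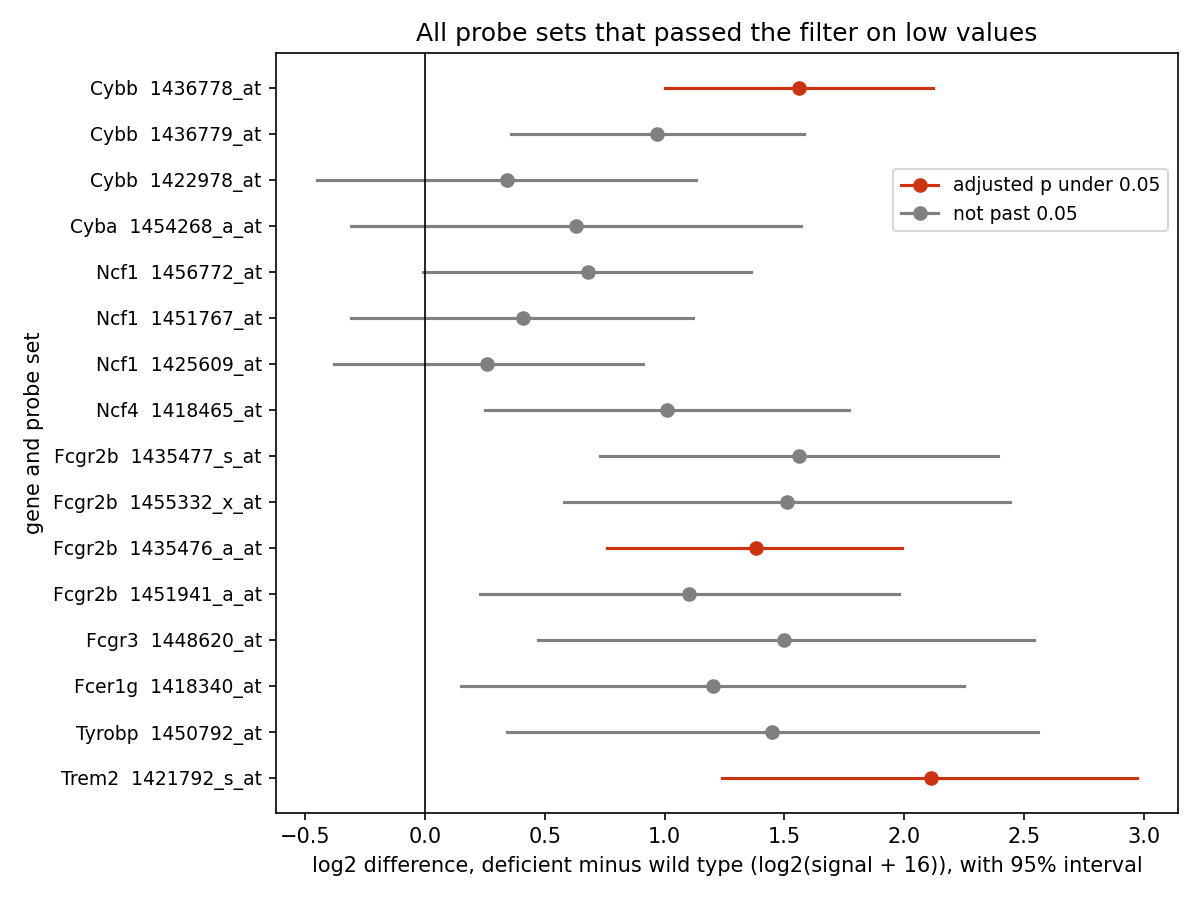
Log2 difference between deficient and wild type muscle (3 libraries each) with its 95% interval for the 16 probe sets that passed the filter, red where the adjusted p over all probe sets was under 0.05. All 16 estimates lie above 0, from 0.26 to 2.11, and 3 are red, 1 each of Cybb, Fcgr2b and Trem2. Trem2 passed the filter only through the deficient group.

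At the probe set level, 16 of the 18 passed the filter and 3 were called higher, beside 0.596% of all probe sets tested. In 9 of the 16 every deficient library was above every wild type library, as held for 10.8% of all probe sets tested. Several of these 9 read the same gene, Fcgr2b or Cybb, so they are not separate genes. The Trem2 probe set, counted in the 3 and in the 9, passed the filter only through the deficient group. At the gene level the groups were apart in this way for 5 of the 9 genes, beside 12.3% of all genes. These 5 were Cybb, Ncf1, Ncf4, Fcgr2b and Trem2, of which Trem2 passed the filter only through the deficient group. The genes varied together across the libraries. Deficient replicate 1 had the highest and deficient replicate 3 the lowest deficient value in all 9 genes, whereas over all genes tested deficient replicate 1 was the highest in 31.4% and deficient replicate 3 the lowest in 40.2%. In the 20 macrophage markers described below these shares were 75% and 85%, so the order is not particular to the 9 genes. Among the wild type libraries replicate 1 was the highest in 8 of the 9, beside 37% of all genes and 60% of those markers. Relative to the wild type mean, the 9 genes lay between 1.41 (Ncf1) and 2.84 (Trem2) in deficient replicate 1, between 0.46 (Ncf1) and 2.30 (Trem2) in replicate 2 and between -0.31 (Cyba) and 1.18 (Trem2) in replicate 3, all in log2 units. Pearson's r between pairs of these genes over the 6 libraries ran from 0.67 for Cybb and Cyba to 0.99 for Cybb and Trem2 and for Fcer1g and Tyrobp, with a median of 0.92 over 36 pairs. After each group's mean was taken away it ran from 0.74 to 0.99. These points share the library and, in the first case, the group difference.

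Among the 4 libraries with Y-linked transcripts, 2 per group, both deficient libraries were above both wild type libraries in all 9 genes, beside 27.5% of all genes tested. The log2 differences there ran from 0.86 for Cyba to 2.57 for Trem2. Between the 2 libraries without them, 1 per group, the differences ran from 0.17 for Cyba to 1.43 for Fcgr3. These within-group values were chosen after seeing the data. With Y-linked transcripts (present or not) as a block, 6 of the 9 genes were called higher, beside 4.14% of all genes and 13 of the 20 macrophage markers described below. These were Cybb (adjusted p = 0.00179), Fcgr2b (0.00419), Trem2 (0.00544), Fcgr3 (0.00624), Fcer1g (0.0122) and Tyrobp (0.014). This block sets replicate 3 of each group apart. That replicate was the lowest deficient library in all 9 genes and the lowest wild type library in 6 of the 9. The block therefore takes away spread within the groups by construction. Deficient replicate 1, counted here as a library with Y-linked transcripts, also carried Xist (396.3). With each library left out in turn, the count of the 9 that were called ran from 0 to 7. It was 7 without deficient replicate 3 (2.95% of all genes called higher), which had the lowest deficient value of each of these genes, so that leaving it out raises their differences by construction. It was 1, Cybb, without deficient replicate 1 (0.549% of all genes). Trem2, included in the counts of 9, 6 and 7 given here, passed the filter only through the deficient group.

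The muscle is a mixture of cells, and in bulk RNA more cells of a type and more RNA per cell cannot be told apart. The 20 macrophage markers had a median log2 difference of 1.12, beside 1.45 for the 9 genes, with 3 called higher, 0 lower and 17 not called. An unadjusted p under 0.05 was found for 15 of them, all higher, and in 11 the groups did not overlap. Their summed signal lay between 4080 and 5910 in wild type and between 6240 and 16600 in deficient libraries, and deficient replicate 1 was again the highest. Mpeg1 rose from 107 ± 13 to 877 ± 357 (adjusted p = 0.00234), Laptm5 from 206 ± 23.3 to 543 ± 113 (0.0162) and Ms4a7 from 68.8 ± 43.6 to 469 ± 267 (0.0425). Of these Mpeg1 kept its call whichever library was left out. Laptm5 lost it in 4 of 6 cases (highest adjusted p = 0.0831 without wild type replicate 1) and Ms4a7 in 5 of 6 (0.169 without deficient replicate 2).

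Each gene was therefore set against the mean of those 20 markers in the same library. On this scale Cybb, read by its brightest probe set, lay at -0.75, -0.49 and -0.34 in wild type and at -0.22, -0.07 and 0.19 in deficient muscle, without overlap, a difference of 0.49. Its probe sets 1436779_at and 1422978_at had log2 differences of 0.97 and 0.34, both below the 1.07 of the marker mean. The excess of Cybb over the markers thus rests on 1436778_at alone. Trem2 lay at -3.34, -3.30 and -2.96 against -2, -2.13 and -2.36, a difference of 1.04 that runs from 0.51 with a pseudocount of 32 to 2.99 with a pseudocount of 1. Ncf1 went the other way, from -0.97, -1.09 and -0.83 to -1.19, -1.73 and -1.14, a difference of -0.39. In these 3 genes the groups did not overlap, which gives the smallest exact permutation p that 3 against 3 allows, 0.1 two-sided (0.3 adjusted over the 9 genes). Since the marker mean is itself 1.07 higher in deficient muscle, 52.5% of all genes tested lay lower without overlap on this scale, as Ncf1 did. A share of 0.366% lay higher without overlap, as Cybb and Trem2 did. The same shift of the marker mean makes this share small by construction. It therefore does not set Cybb apart from other genes of macrophages. Trem2 also passed the filter only through the deficient group, so the share is no fair comparison for either gene. Its wild type signals, 2.1 to 2.7, also lay below the pseudocount of 16. With 1 library left out the difference ran from 0.38 to 0.59 for Cybb, from 0.96 to 1.16 for Trem2 and from -0.50 to -0.20 for Ncf1, whose -0.20 was found without deficient replicate 2. The other 6 genes overlapped between the groups, with differences from -0.44 for Cyba (-0.22 without wild type replicate 1) to 0.49 for Fcgr2b. The differences of Ncf4 and Fcer1g changed sign with 1 library left out, running from -0.18 to 0.11 and from -0.06 to 0.36. Fcgr3 ran from 0.14, without wild type replicate 3, to 0.69, without wild type replicate 1, and Tyrobp from 0.13, without deficient replicate 1, to 0.69, without deficient replicate 3. The markers and the 9 genes share the libraries, and level differences between genes on this scale cannot be read, since they depend on the probes.

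**Figure D3:**
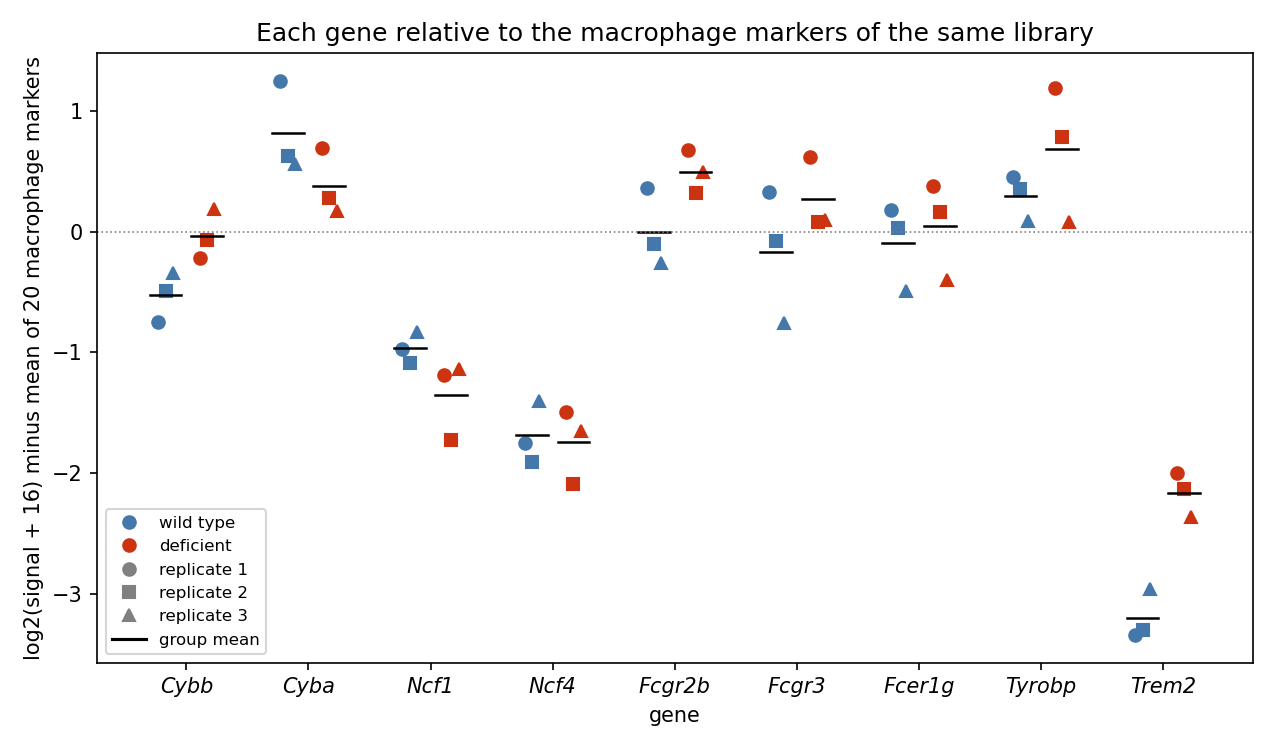
Log2 value of each gene minus the mean of 20 macrophage markers in the same library, for 3 wild type (blue) and 3 deficient (red) libraries, with the replicate number as the symbol and the group mean as a bar. Each gene is read by its brightest probe set. The groups do not overlap for Cybb and Trem2, higher in deficient muscle, and for Ncf1, lower. The other probe sets of Cybb, with smaller log2 differences, are not shown. Trem2 passed the filter only through the deficient group. Heights are comparable only within a gene.

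Of 15 other genes of NADPH oxidases listed, 7 were tested, 1 was called higher and 0 lower, with a median log2 difference of 0.09. The called gene was Nox4, a catalytic subunit of an oxidase of fibroblasts, vessels and muscle that pairs with the Cyba product and needs no cytosolic subunits. It read 35.2, 30.5 and 27.5 in wild type and 193.3, 108.1 and 126 in deficient muscle. Nox4 rose by 1.72 on the log2 scale (SE 0.235, adjusted p = 0.0083), and the call held whichever library was left out (highest adjusted p = 0.0449). Rac2, the small GTPase of the phagocyte oxidase, read 102.3, 97.3 and 92.8 against 151.6, 101.7 and 73 (log2 difference 0.09, adjusted p = 0.885), and its relative Rac1 had a log2 difference of -0.27 (adjusted p = 0.383). Cybc1, a chaperone of the Cybb product, had 0.22 (adjusted p = 0.555) and Rap1a, a GTPase found with the membrane subunits, 0.15 (adjusted p = 0.653).

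Among other Fc receptor genes, 8 of 14 were tested and limma called 0; an unadjusted p under 0.05 was found for 3 of them, 2 higher and 1 lower. Fcgr4, an activating receptor encoded between Fcgr2b and Fcgr3, read 26.4, 29.5 and 14.7 in wild type and 119, 79.4 and 46.8 in deficient muscle, without overlap (log2 difference 1.26, adjusted p = 0.0632). Fcgr1, the high-affinity IgG receptor, read 36.8, 24.9 and 17 against 206, 75.6 and 25.6, with overlap (log2 difference 1.19, adjusted p = 0.241). Fcer2a, the low-affinity IgE receptor of B cells, read 50.9, 45.7 and 59.7 against 12.6, 4.3 and 34.4, lower in every deficient library (log2 difference -1.14, adjusted p = 0.103). Fcmr, the IgM receptor, had a log2 difference of -0.44 (adjusted p = 0.37). The list held up to 3 calls with 1 library left out.

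Of 16 other receptors and adaptors of the Trem and DAP12 group, 12 were tested, 1 was called higher and 0 lower, with a median of 0.41. The called gene, Cd300c2, an activating receptor of the CD300 family, read 15.1, 22.8 and 26.5 in wild type and 111.9, 114.1 and 49.9 in deficient muscle (log2 difference 1.47, adjusted p = 0.0357). Leaving out each library in turn ended its call in 5 of 6 cases (adjusted p up to 0.143, without deficient replicate 2). Its relative Cd300lb, which signals through DAP12, read 26.8, 24.1 and 11.7 against 89.1, 72.6 and 38.1 (adjusted p = 0.0811). Sirpb1a, another receptor that uses DAP12, read 3.1, 13.4 and 2.1 against 105.2, 40.2 and 14.7 (adjusted p = 0.129) and passed the filter only through the deficient group. Cd300a, an inhibitory receptor of the family, had a log2 difference of 0.97 (adjusted p = 0.138). Hcst, which encodes the adaptor DAP10 and is the direct neighbour of Tyrobp, read 25.7, 29.4 and 32.7 against 39.9, 40.9 and 37.7, a difference of 0.30 (adjusted p = 0.486).

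The 21 listed genes of the signalling machinery below the activating and inhibitory tyrosine motifs include kinases, adaptors and phosphatases. By limma 0 of the 18 tested were called, with 4 at an unadjusted p under 0.05 (3 without Lat2), all 18 log2 differences were positive and the median was 0.33. The kinase gene Syk, which docks on the activating motif, read 47.7, 48.4 and 46.3 in wild type and 73.9, 69.7 and 50 in deficient muscle (log2 difference 0.33, adjusted p = 0.423). The adaptor gene Lat2, which passed the filter only through the deficient group, read 3.2, 28.6 and 9.3 against 69.4, 37.7 and 36.7 (log2 difference 1.16, adjusted p = 0.116). Prkcd, a kinase that phosphorylates oxidase subunits, had 0.52 (adjusted p = 0.209), the Src family kinase gene Fgr 0.74 (0.247) and Inpp5d, the phosphatase recruited by the inhibitory receptor, 0.55 (0.262). No call was made in this list under any alternative run.

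Of 16 genes of lipid-handling macrophages that are associated with Trem2, 12 were tested, 3 were called higher and 0 lower, with a median of 0.43. Lgals3, a galectin, rose from 248 ± 70 to 1850 ± 897 (adjusted p = 0.00596), Clec7a, the beta-glucan receptor Dectin-1, from 57.4 ± 31.4 to 305 ± 128 (0.022) and Gpnmb from 45.6 ± 1.95 to 233 ± 84.8 (0.0083). Lgals3 kept its call whichever library was left out, Gpnmb lost it without deficient replicate 2 (adjusted p = 0.0544) and Clec7a lost it in 4 of 6 cases (highest 0.107 without wild type replicate 1). Itgax, an integrin chain, read 17, 15.3 and 3.9 against 61.4, 64.6 and 26.6 (adjusted p = 0.0832) and also passed the filter only through the deficient group. Apoe, a Trem2 ligand, was at 1733.5, 1168.9 and 1094.5 against 3128.1, 3562.8 and 1706.5 (log2 difference 1.02, adjusted p = 0.0901), while Lpl, Ctsd and Csf1 of the same list had differences between -0.13 and -0.02. Of 15 uptake receptors other than Fc receptors, 1 was called higher and 0 lower, with a median of 0.38. This was Lrp1, a receptor for apolipoproteins and debris, with 320.8, 323.3 and 285.9 against 599.2, 635.1 and 522.2 (log2 difference 0.88, adjusted p = 0.0323, and 0.127 without wild type replicate 1). The scavenger receptor gene Msr1 read 33.9, 14 and 10 against 203, 95.7 and 44.4 (adjusted p = 0.0689). Mertk, a receptor for dying cells and also one of the macrophage markers, had a log2 difference of 1.07 (adjusted p = 0.087) and the lectin gene Clec4n 1.34 (0.128). Of the 15 uptake receptors, 10 had a positive log2 difference. An unadjusted p under 0.05 by limma was found for 5 higher and 1 lower. The lower one was Cd209f, with a log2 difference of -0.95 (adjusted p = 0.208).

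Without deficient replicate 1 the calls were 1 among the other oxidase genes, 0 in the Trem and DAP12 group, 2 among the lipid-handling genes, 0 among the uptake receptors and 1 among the macrophage markers.

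**Figure D4:**
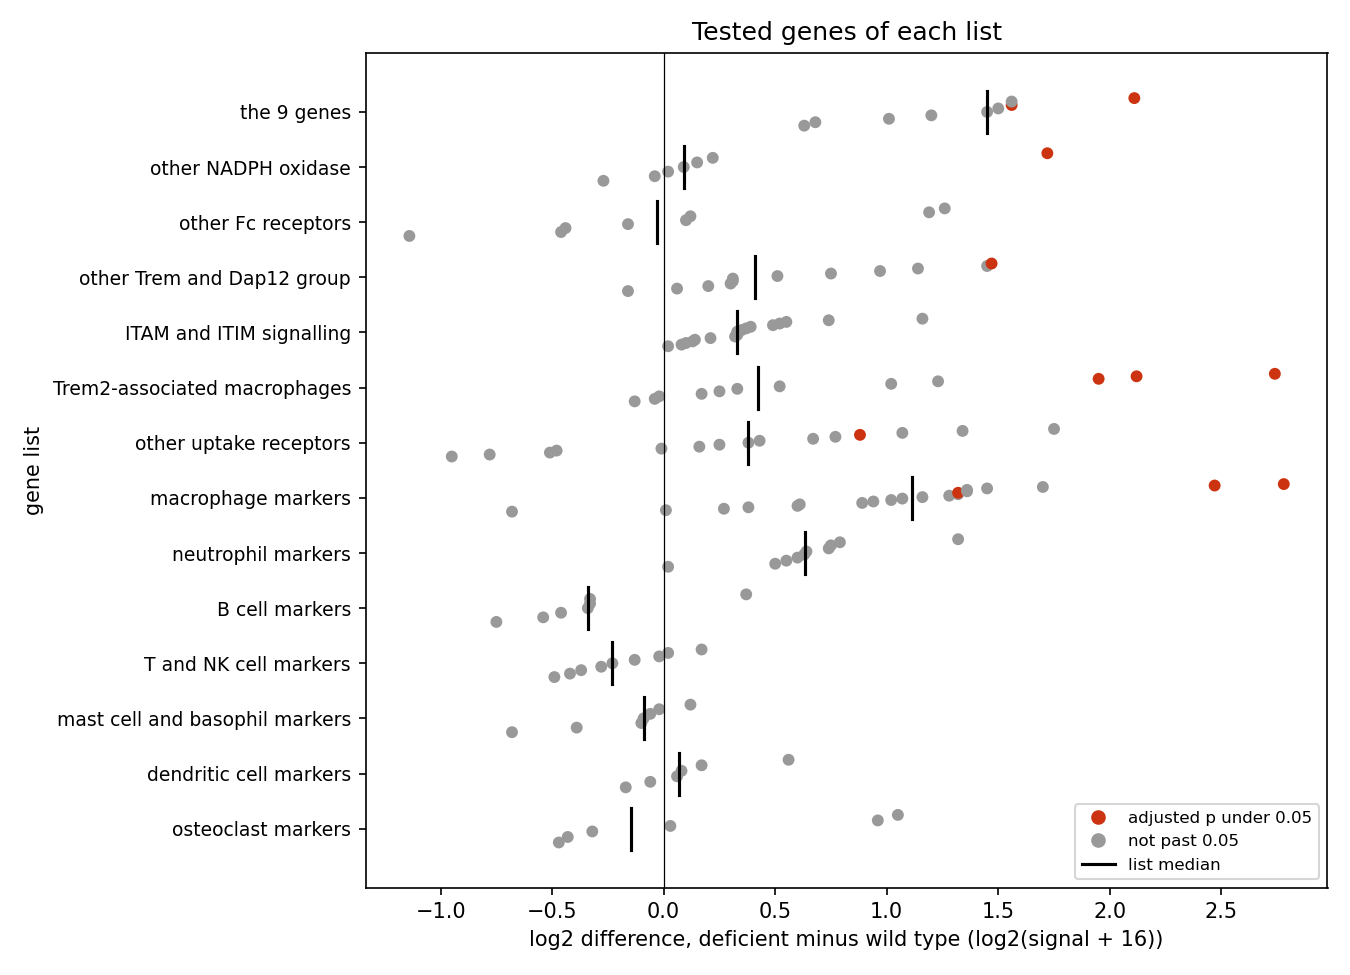
Log2 difference between deficient and wild type muscle (3 libraries each) for every tested gene of each list, red where the adjusted p was under 0.05, with the list median as a black bar. The 9 genes have a median of 1.45, the macrophage markers 1.12 and the B cell markers -0.34.

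Markers of other cells that express some of the 9 genes were read in the same way. Neutrophils also carry the oxidase, and limma called 0 of 10 neutrophil markers tested. All 10 log2 differences were positive, with a median of 0.63. An unadjusted p under 0.05 was found for 1, Csf3r (6.5, 16 and 4.6 against 76.5, 37.7 and 30.2), which passed the filter only through the deficient group. S100a8 and S100a9, abundant neutrophil genes, were highest in replicate 2 of each group: S100a9 read 135.3, 1153.2 and 375.3 against 811.2, 2200.3 and 164.3. The summed neutrophil signal was 453 to 3030 in wild type and 644 to 6190 in deficient libraries. B cells carry Fcgr2b, and 6 of their 7 tested markers had a negative log2 difference, with a median of -0.34, 0 called and 1 at an unadjusted p under 0.05, Ms4a1 (72, 85.4 and 91.9 against 45.2, 33.1 and 51). Their summed signal was 326 to 395 in wild type and 211 to 306 in deficient libraries. Mast cells carry Fcer1g, and their 7 tested markers had a median of -0.09 with 0 at an unadjusted p under 0.05 and 0 called. The 9 markers of T and NK cells (NK cells carry Fcgr3 and Tyrobp) had a median of -0.23, also with 0 called and 0 at an unadjusted p under 0.05. Dendritic cell markers had a median of 0.07 over 6 genes, with 0 called and 0 at an unadjusted p under 0.05. Osteoclast markers had a median of -0.14 over 6, with 0 called and 3 at an unadjusted p under 0.05. These were Atp6v0d2 and Ctsk, higher (log2 differences 1.05 and 0.96), and Nfatc1, lower (-0.47). The osteoclast fusion genes Dcstamp and Ocstamp stayed at or below 17.6 in every library, the neutrophil receptor gene Cxcr2 at or below 3.4, the T cell receptor chain gene Cd3e at or below 15.6 and the dendritic cell receptor gene Xcr1 at or below 4.8. Brown adipocyte markers also moved, with 1 of 7 tested called higher and 2 lower, and their summed signal was 8100 to 10100 in wild type and 5470 to 6850 in deficient libraries. Ucp1, the uncoupling protein of brown fat, fell from 1033.4, 356.7 and 1481.2 to 43.8, 12.7 and 43.7 (adjusted p = 0.00443) and kept its call whichever library was left out. Cidea, a lipid droplet gene, also fell (adjusted p = 0.0211, and 0.106 without wild type replicate 1), and Dio2, a thyroid hormone deiodinase gene, rose (0.0453, and 0.171 without deficient replicate 2). Of 9 hair follicle and keratinocyte markers tested, 2 were called lower, Krt73 (adjusted p = 0.0392, and 0.146 without wild type replicate 1) and Tchh (0.0486, and 0.172 without wild type replicate 2), with a median of -1.83. Of the 9, 5 passed the filter only through the wild type group, Krt73 and Tchh among them. The part of these cells in the results was not tested.

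Muscle fibre markers were bright in every library, with signals of 10629.3 to 15099.6 for the skeletal actin gene Acta1. Of 10 such markers, 0 were called and 4 had an unadjusted p under 0.05, all lower, with a median of -0.21. The 5 genes whose profile over the 6 libraries was most like the mean of the 9 were Nnmt (r = 0.9987), Ly86 (0.9971), Yeats4 (0.9958), Unc93b1 (0.9927) and Vim (0.9922), out of 13095 compared. Ly86 encodes MD-1, a partner of a Toll-like receptor homologue on myeloid cells, and is one of the macrophage markers above. It read 129.3, 110 and 84.9 in wild type and 584.7, 292.9 and 151.9 in deficient muscle. Vim, the vimentin gene of mesenchymal and blood cells, read 2380.7, 2212.1 and 1668.1 against 5922.4, 4683.4 and 2623. None of the 5 passed the test, with adjusted p values between 0.0878 and 0.423.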

How the data were processed

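The authors deposited a linear signal intensity for every probe set on each of the 6 arrays, scaled to a common trimmed mean, as the values show; which algorithm made it was not given in the sources used here. Per the labels' protocols, biotinylated cRNA was made from 1 ug of total RNA. Of 45101 probe sets, 34945 had 1 gene symbol, 932 had several, 9160 had none and 64 were controls, and 34741 matched RefSeq genes of GRCm38.p6 by Entrez identifier. Values were used as log2(signal + 16). Array medians differed by 0.226 at most on this scale, so no further normalization was applied. Probe sets with a mean signal below the 40th percentile, 15, were left out. Groups were compared with limma 3.58.1 (R 4.3.3; lmFit and eBayes with trend, two-sided) at the level of genes, each read by its brightest probe set, and of probe sets. The steps were tested on simulated data. Named genes were the 9, up to 4 genes of each related list and 3 of each marker list with the smallest p, fixed partners and the 5 most alike profiles. Apoe, Lpl, Ctsd, Csf1, Cd209f, S100a8, S100a9, Dcstamp, Ocstamp, Cxcr2, Cd3e, Xcr1, Acta1, Krt25, Xist and Eif2s3y were named outside that rule or after their values were seen. The genes and lists were chosen with earlier results of these data known. Alternatives were other normalizations, pseudocounts, filters, priors, uses of several probe sets, a 2-fold minimum, 2 blocks and each library left out.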

Additional observations from a re-analysis of the deposited data

How the results depend on the processing

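Of the 9 genes, 2 were called, and of their probe sets 3. No log2 difference of the 9 reversed under any alternative run. With 1 library left out the count of genes ran from 0 to 7 and that of probe sets from 0 to 9. The count of genes was 1 with the 60th percentile filter, which leaves Trem2 untested, 1 with the mean of probe sets, 0 with a 2-fold minimum and 6 with Y-linked transcripts as a block. The count of probe sets was 1 with median centring, 1 with no filter, 0 with no intensity trend, 0 with a 2-fold minimum and 8 with Y-linked transcripts as a block. The cause of these shifts was not tested. With the replicate number as a block 6 genes and 9 probe sets were called, and 855 of all genes against 353 without it. The labels give the numbers as biological replicates and name no pairs of mice. Same-numbered libraries deviated from their group means with correlations of 0.146, 0.0674 and 0.298. For differently numbered libraries these ran from -0.29 to 0.2. Replicate 3 also lacks Y-linked transcripts in both groups. Whether the mice were paired by number cannot be told from these values. Among all genes, the count of calls was 216 with no filter, 159 with no intensity trend, 12 with a 2-fold minimum, 1144 with Y-linked transcripts as a block and 64 to 665 with 1 library left out. The macrophage markers called ran from 1 to 14 with 1 library left out, against 3. The wild type signals of Trem2 lay near the bottom of the range, and each group had 3 arrays.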
